A study of Mus musculus with 2 samples.

Results

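The 216 strongest peaks of a Dnmt1 DamID experiment in cleavage-stage mouse embryos are described here. They were chosen by their measured signal, as every deposited peak with a Dnmt1-Dam height of 20 or more, and they make up 2.63% of the 8226 peaks in the deposited table. Each deposited peak is 1 position in mm9 coordinates with a whole-number height in each of 2 libraries. The Dnmt1-Dam library came from 50 embryos injected with a V5-tagged Dnmt1 fused to Dam, and the Dam-only library from 50 embryos injected with Dam without a partner. All embryos were BCF1 (C57BL/6 x CBA/CA) embryos at the 4- to 8-cell stage, from superovulated females of 5 weeks. The embryos of a group were pooled into 1 library, so the heights have no replicate check and no difference between the libraries was tested. Both groups carry an injected Dam enzyme besides the embryo's own Dnmt1. The depth of the libraries is unknown.

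Dnmt1 is the enzyme that copies CpG methylation onto the new DNA strand after replication. Dam is a bacterial enzyme that methylates the adenine of GATC, so a Dam fusion leaves a mark where its partner has been, and Dam alone marks the DNA it can reach. In cleavage embryos most inherited DNA methylation is lost, while imprinted regions and part of the retroelements keep theirs. Retroelements are the copied transposable elements of the genome, with SINEs as short elements without their own enzymes, LINEs as long autonomous elements and LTR elements as relatives of retroviruses. A CpG island is a stretch of DNA dense in CpG, often at a promoter, and its shores and shelves are the flanks at increasing distance.

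Of the 216 peaks, 7 lay in proximal promoters, from 3 kb upstream to 1 kb downstream of a start site, and the file lists no island, shore or shelf at any of them. It lists none at 189 of the 212 proximal promoter peaks under 20 either, so 0 of 7 does not set these peaks apart. Heights are given as Dnmt1-Dam against Dam-only, and negative distances are upstream of the start site. Ints10, a subunit gene of the Integrator complex, had 28 against 1 at 108 bp downstream of its start site. Gfra2, a receptor gene for neurotrophic factors, had 27 against 1 at -1436 bp. Abr, a regulator gene of small GTPases, had 25 against 1 at 315 bp. Tmem185b had 23 against 7 at 927 bp. Smarcc2, a subunit gene of the BAF chromatin remodeler, had 22 against 1 in a SINE at -1181 bp. Cers1, a ceramide synthase gene named Gdf1 in the file, had 21 against 1 at 852 bp. Pla1a, a phospholipase gene, had 21 against 1 in a SINE with a simple repeat at -796 bp. Dam-only heights were thus 1, the lowest value listed, at 6 of the 7. That height was also found at 50.5% of the 216 peaks and at 76.5% of the peaks under 20. With 7 peaks, the count is not read as a feature of these promoters.

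The promoter sequence of 4 of these 7 genes was found in a RefSeq table of assembly GRCm38.p6, with 250 bases before the start site to 50 after it. The peaks themselves are in mm9, and by the start sites of the file they lie outside such a window. Positions were not converted between the builds, so where a peak falls relative to its sequence is not known exactly. The sequences are shown for the density of CpG, the substrate of Dnmt1, near a start site of the assigned genes. Each is read 5′ to 3′ on the gene's strand, with CpG in capitals. Abr is at chr11:76571335-76571634 on the minus strand and Cers1 at chr8:70315525-70315824 on the plus strand. Tmem185b is at chr1:119525904-119526203 and Smarcc2 at chr10:128458986-128459285, both on the plus strand.
Abr: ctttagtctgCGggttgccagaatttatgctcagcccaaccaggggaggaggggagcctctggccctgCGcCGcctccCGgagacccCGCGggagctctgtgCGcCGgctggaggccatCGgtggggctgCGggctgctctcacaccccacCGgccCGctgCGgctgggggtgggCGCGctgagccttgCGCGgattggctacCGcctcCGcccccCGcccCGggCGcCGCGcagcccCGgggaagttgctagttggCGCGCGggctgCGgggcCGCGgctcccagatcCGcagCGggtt
Cers1: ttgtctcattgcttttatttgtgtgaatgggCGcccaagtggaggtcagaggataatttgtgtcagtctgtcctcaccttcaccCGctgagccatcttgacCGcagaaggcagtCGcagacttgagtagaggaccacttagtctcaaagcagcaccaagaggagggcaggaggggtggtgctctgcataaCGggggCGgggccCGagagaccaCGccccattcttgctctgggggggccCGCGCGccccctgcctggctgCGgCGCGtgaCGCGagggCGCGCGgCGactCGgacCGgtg
Tmem185b: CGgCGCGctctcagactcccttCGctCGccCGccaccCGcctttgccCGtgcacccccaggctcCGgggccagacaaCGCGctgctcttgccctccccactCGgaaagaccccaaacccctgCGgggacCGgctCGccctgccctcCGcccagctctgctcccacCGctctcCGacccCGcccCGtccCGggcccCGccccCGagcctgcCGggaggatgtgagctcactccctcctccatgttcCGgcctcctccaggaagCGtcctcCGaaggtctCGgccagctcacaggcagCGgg
Smarcc2: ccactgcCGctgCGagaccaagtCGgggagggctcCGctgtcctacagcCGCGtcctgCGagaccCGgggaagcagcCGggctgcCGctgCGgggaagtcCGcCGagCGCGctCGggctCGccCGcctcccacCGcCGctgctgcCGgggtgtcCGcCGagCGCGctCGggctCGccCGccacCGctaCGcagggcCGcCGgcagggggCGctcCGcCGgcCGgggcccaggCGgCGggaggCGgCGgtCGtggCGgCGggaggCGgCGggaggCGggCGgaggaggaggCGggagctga

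These windows hold 33 CpG at Abr, 22 at Cers1, 29 at Tmem185b and 48 at Smarcc2. The ratio of observed to expected CpG was 0.790, 0.755, 0.795 and 0.986 in that order, and the GC content 74.7%, 62.7%, 73.3% and 81.0%. All 4 are above the usual island minimum of 0.6 and 50%, which 33.3% of the 32851 promoters in the table pass. The Dam target GATC, which reads the same on either strand, was found once at Abr and not in the other 3 windows, and 48.0% of all promoters in the table hold it. Of the 171 peaks under 20 in proximal promoters with a sequence in the table, 88 belonged to a CpG-dense promoter by the same minimum, and the file lists an island context at 8 of these. Among the other 83 it lists one at 10. The file thus did not list a context more often at peaks of CpG-dense promoters. The island column belongs to the peak and the density to a window of another build, so these counts cannot test the column. The counts of island peaks depend on that column. Of several start sites in the table, the one that best fitted the gene length in the file was used. It fitted within 12 bp at Abr, while at the other 3 genes the only start site in the table gave gene lengths that differed by 417 to 1730 bp.

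Among the 216 peaks the Dnmt1-Dam height had a median of 22 and an interquartile range of 21 to 26.2. The set is crowded at its lower end, since 47 peaks lay at 20, just inside the rule, and 62 lay at 19, just outside it. Of the 47 peaks at 20, 23 had a Dam-only height of 1, and of the 62 peaks at 19, 34 did. Only 40 peaks reached 30, 17 reached 40, 7 reached 50 and 1 exceeded 100. That peak, of 202 against 1 for Dam-only, lay in a SINE at position 106479661 of chromosome 5, 174 kb downstream of the start site of Zfp326, a zinc finger protein gene. The next highest reached 66.

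**Figure D1:**
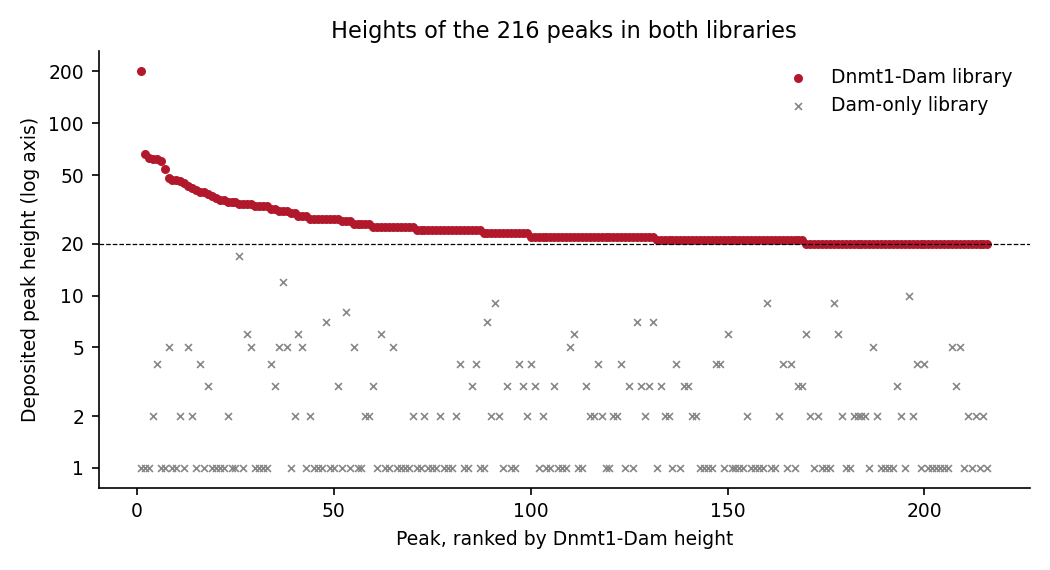
Deposited heights of the 216 peaks in the Dnmt1-Dam library (red points) and in the Dam-only library (grey crosses), ranked by Dnmt1-Dam height, on a log axis with a dashed line at 20. The red points fall steeply over the first few peaks and are nearly flat at 20 to 22 from rank 100 on, while the grey crosses reach 17 and many lie at 1.

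The Dam-only height was 1 at 109 of the 216 peaks (50.5%) and at 6130 of the 8010 peaks under 20 (76.5%). It was 5 or more at 30 of the 216 (13.9%) and at 190 of the 8010 (2.37%). These shares are given as a description, since the table lists no peak whose Dnmt1-Dam height is less than 6 above its Dam-only height, and low peaks therefore cannot carry a high Dam-only height. The highest Dam-only height was 17, against 34 for Dnmt1-Dam, at a LINE peak -100 kb from the start site of Hsfy2. A further peak at -80.2 kb from Osr1, a transcription factor gene of mesoderm, had 31 for Dnmt1-Dam against 12 for Dam-only. These peaks were singled out after their values were seen, and at them the Dnmt1-Dam height was 2 and 2.58 times the Dam-only height.

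Outside Zfp326, Wnt3 and Fibin, the 12 highest peaks had heights of 46 to 66. Bcas1, a myelin-associated gene, had 66 for Dnmt1-Dam against 1 for Dam-only at 125 kb from its start site. Rpl37, which encodes a protein of the large ribosomal subunit, had 62 against 4 at -165 kb. Sub1, a transcriptional coactivator gene, had 60 against 1 in LTR sequence at 28.0 kb. Rag2, the recombinase gene of lymphocytes, had 54 against 1 in a SINE at -510 kb. These distances place the peaks outside the genes they are assigned to. Cpeb3, a regulator of messenger RNA translation, had 48 against 5 at 4.58 kb, inside the gene. Zfp607a, named Zfp607 in the file, had 47 against 1 inside the gene at 3.897 kb, and Usp38, a deubiquitinase gene, had 47 against 1 at -10.4 kb. Ncam1, the neural cell adhesion molecule gene, matched by accession, had 46 against 2 on chromosome 9 at 49641451, -34.3 kb from its start site. Wnt3 and Fibin hold the other peaks of the 12 and are described with the close pairs.

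Close pairs were frequent. Joining rows no more than 1000 bp apart left 205 separate sites, of which 174 were 1 row, 29 were 2 rows and 2 were 3 or more. Of the 216 peaks, 42 (19.4%, exact 95% interval 14.4 to 25.4) had another deposited peak within 1 kb, against 941 of the 8010 peaks under 20 (11.7%, 11.1 to 12.5). The odds ratio, the odds among the 216 peaks over those among the others, was 1.81 (exact 95% interval 1.25 to 2.57, for counting error only). Widened for all 21 comparisons made, the interval was 1.02 to 3.06. Both intervals treat rows as independent, yet both rows of a close pair are counted, as in 11 sites with 2 rows of 20 or more. A lower limit of 1.02 is therefore not read here as a difference. Against peaks of height 9 to 19 alone the odds ratio was 1.44 (0.992 to 2.05), which no longer excludes 1. It was 1.98 (1.61 to 2.41) at height 15 or more and 2.58 (1.41 to 4.50) at 25 or more. At a Dam-only height of 1 it was 2.25 (1.39 to 3.54), and ranked by ratio 3.02 (2.19 to 4.13). These intervals also count both rows of a pair. By height class the share was 8.98% at 7 to 8, 20.2% at 15 to 19, 16.4% at 20 to 24 and 25% at 30 or more. Peaks just under 20 thus had close neighbors too. Within 10 kb the shares were 25.5% (19.8 to 31.8) of the 216 peaks and 17.6% (16.8 to 18.5) of the others. With 1 peak kept per 1 kb site, the shares within 10 kb became 6.34% and 6.66%, an odds ratio of 0.95 (0.493 to 1.68). That interval contains 1. The DNA fragments were selected around 300 bp, so close rows are not independent, and how many share fragments was not tested.

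In 11 sites, 2 rows both reached 20, and these rows were 80 to 110 bp apart with a median of 100 bp. The 23 pairs within 1 kb with 1 row of 20 or more were 80 to 410 bp apart, and the 475 pairs of rows under 20 were 70 to 1000 bp apart, both with a median of 110 bp. The highest pair lay on chromosome 11, -11.7 and -11.6 kb from Wnt3, a secreted signaling protein of gastrulation, with 62 and 63 for Dnmt1-Dam against 2 and 1 for Dam-only. Fibin, named 1110018M03Rik in the file, had 36 and 45 against 1 and 1 in LTR sequence at -22.2 and -22.3 kb. Dgkg, a diacylglycerol kinase gene, had 40 and 40 against 4 and 1 in a SINE inside the gene. At Nxpe4 the rows had 34 and 33 against 1 and 1, and rows of 16 and 10 flanked them. At Glra1, a glycine receptor gene, they had 34 and 25 against 6 and 1 in LINE sequence, and a SINE was named at the second row as well. At Zfhx3, a homeobox transcription factor gene, they had 29 and 20 against 6 and 1. The repeat named there was a simple repeat at the first row and none at the second, 100 bp away.

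The other pairs were lower and had Dnmt1-Dam heights of 21 to 28. Dcaf7, named Wdr68 in the file, had 26 and 28 against 2 and 1 inside the gene. Scg2, the gene of the neuroendocrine protein secretogranin II, had 24 and 25 against 1 and 1 in a SINE. Atad2b, a bromodomain ATPase gene, had 23 and 25 against 4 and 1. Cndp2, a dipeptidase gene, had 24 and 21 against 4 and 1. St6galnac3, a sialyltransferase gene, had 21 and 22 against 2 and 1. Dnmt1-Dam heights within these 11 pairs thus differed by 0 to 9, with a median difference of 2.

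The Dam-only heights within pairs were lopsided. In 3 of the 11 pairs they were equal, and in the other 8 the row at the lower position was the higher one, with the second row at 1 each time. Over all 32 pairs up to 200 bp apart that hold a peak of 20 or more, the row at the lower position had a Dam-only height over 1 in 17 pairs, and the row at the higher position in 1, at Crlf3. Over all 448 such pairs in the table, the numbers were 141 (31.5%) and 10 (2.23%). Among rows 1 to 10 kb apart they were 52 (19.6%) and 76 (28.7%) of 265 pairs. A Dam-only height of 1 at the second row of a close pair, which 20 of 21 such peaks of 20 or more had, is therefore not read here as a low Dam-only signal. The cause of this pattern was not tested. The other 195 peaks of 20 or more had a Dam-only height of 1 at 89 positions (45.6%), against 75.3% of the other 7583 peaks under 20.

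**Figure D2:**
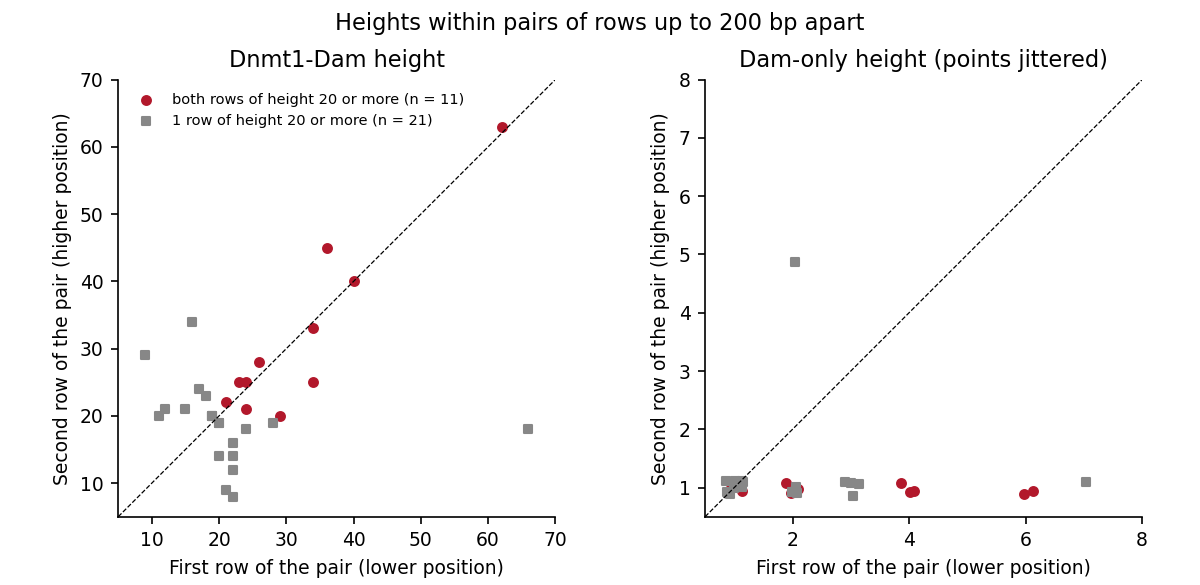
Heights of the second row against the first row of each pair of neighboring rows up to 200 bp apart, for 11 pairs in which both rows reached 20 (red circles) and 21 pairs in which 1 row did (grey squares). Left, Dnmt1-Dam heights. Right, Dam-only heights, jittered. The dashed line marks equal heights. On the right all points but 1 lie at a second-row height of 1, while first-row heights reach 7.

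By location, the 216 peaks differed little from the others. Of the 216, 101 lay in gene bodies (46.8%, 39.96 to 53.6), against 3391 of the 8010 peaks under 20 (42.3%, 41.2 to 43.4). Intergenic peaks were 98 (45.4%, 38.6 to 52.3), against 4082 (51.0%, 49.9 to 52.1). The odds ratios were 1.20 (0.903 to 1.58) and 0.80 (0.603 to 1.06), neither of which excludes 1. Distal promoters, 10 to 3 kb upstream of a start site, held 10 peaks (4.63%) against 325 (4.06%). Proximal promoters held 7 (3.24%) against 212 (2.65%), with an odds ratio of 1.23 (0.483 to 2.63). The median distance to the start site was 51.1 kb for the 216 peaks and 60.7 kb for the others, and the median length of the assigned genes was 59.99 kb and 58.3 kb.

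Within the set, however, the intergenic share differed between height classes. Of the 40 peaks of height 30 or more, 26 were intergenic (65.0%, 48.3 to 79.4) and 14 lay in gene bodies, with none in a promoter class. Of the 146 peaks of height 20 to 24, 55 were intergenic (37.7%, 29.8 to 46.1) and 77 lay in gene bodies (52.7%, 44.3 to 61.1). The classes are cut on the height that chose the set, and both rows of a close pair are counted. These shares are therefore a description only. The 30 peaks of 25 to 29 lay between, with 17 intergenic (56.7%, 37.4 to 74.5). Peaks under 20 stayed between 48.6% and 52.3% intergenic in every height class. The share therefore did not change evenly with height, and these classes were compared after their values were seen. With 25 as the threshold the odds ratio of intergenic peaks was 1.55 (0.932 to 2.61), on the other side of 1 from the value at 20.

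**Figure D3:**
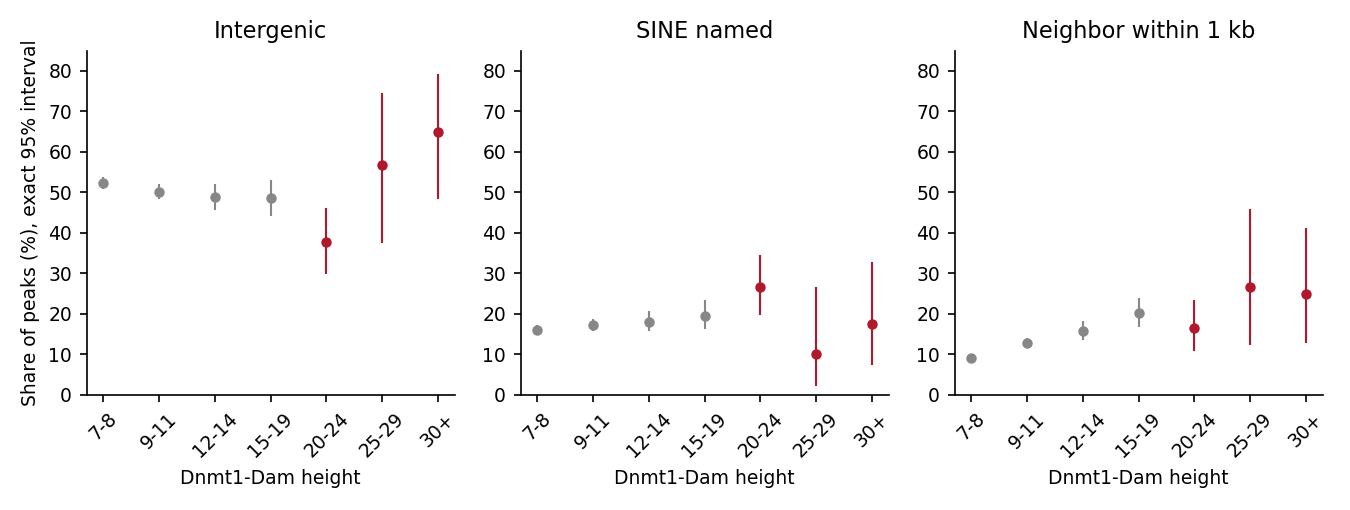
Share of peaks that were intergenic, that lay in a SINE and that had another deposited peak within 1 kb, by class of Dnmt1-Dam height, with exact 95% binomial intervals. Grey points are classes under 20 and red points classes of 20 or more. The intergenic share is lowest at 20-24 and highest at 30 or more, and the SINE share is highest at 20-24.

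Retroelements were named at 79 of the 216 peaks (36.6%, 30.1 to 43.4) and at 2800 of the others (35.0%, 33.9 to 36.0), an odds ratio of 1.07 (0.800 to 1.43). No repeat was named at 131 (60.6%, 53.8 to 67.2) against 4845 (60.5%, 59.4 to 61.6). SINEs were named at 49 peaks (22.7%, 17.3 to 28.9), against 1355 of the others (16.9%, 16.1 to 17.8). That odds ratio was 1.44 (1.02 to 2.004), but its interval widened for the 21 comparisons contains 1 (0.841 to 2.37). The share of the 216 peaks was above that of the others on 10 of 19 autosomes and below it on 9. SINE peaks were 39 of the 146 peaks of 20 to 24 (26.7%) and 10 of the 70 peaks of 25 or more (14.3%), where the odds ratio was 0.81 (0.368 to 1.60). With 1 peak per 1 kb site it was 1.41 (0.984 to 1.98). The genomic coverage of the repeat classes was not analysed here.

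SINE peaks of the set lay both inside and between genes. They made up 25 of the 101 gene body peaks (24.8%), against 18.2% of gene body peaks under 20, and 19 of the 98 intergenic peaks (19.4%), against 14.9%. Tnpo1, a nuclear import receptor gene, had 37 against 1 in an intragenic SINE at 17.8 kb. Uspl1, a gene of the SUMO pathway, had 35 against 1 at -59.7 kb. Sil1, a cofactor gene of endoplasmic reticulum chaperones, had 34 against 5 inside the gene. These and the next named elements were taken by height after the values were seen.

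LTR elements were named at 17 of the 216 peaks (7.87%, 4.65 to 12.3), against 10.9% (10.2 to 11.6) of the others. The odds ratio was 0.70 (0.398 to 1.16), which contains 1. Most were intergenic, with 13 of the 98 intergenic peaks (13.3%) and 3 of the 101 gene body peaks (2.97%, 0.617 to 8.44) in LTR sequence. LTR peaks were also 7 of the 40 peaks of height 30 or more (17.5%, 7.34 to 32.8) and 9 of the 146 of 20 to 24 (6.16%, 2.86 to 11.4), with overlapping intervals. The shares by location under 20 were 13.99% and 7.14%. Sub1 and Fibin led them, followed by Cemip, a hyaluronan-degrading protein gene named 9930013L23Rik in the file, with 43 against 5 inside the gene. Abhd5, a lipase cofactor gene, had 38 against 1 at 212 kb. LINEs were also named at 17 peaks (7.87%), against 8.19% of the others, and the highest were at Glra1 and Hsfy2. Simple repeats were named at 3 (1.39%) against 2.51%, DNA transposons at 1 (0.463%) against 1.94%, and low-complexity sequence at 0 of 216 (exact interval to 1.69%) against 0.287%. None of these odds ratios excluded 1.

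**Figure D4:**
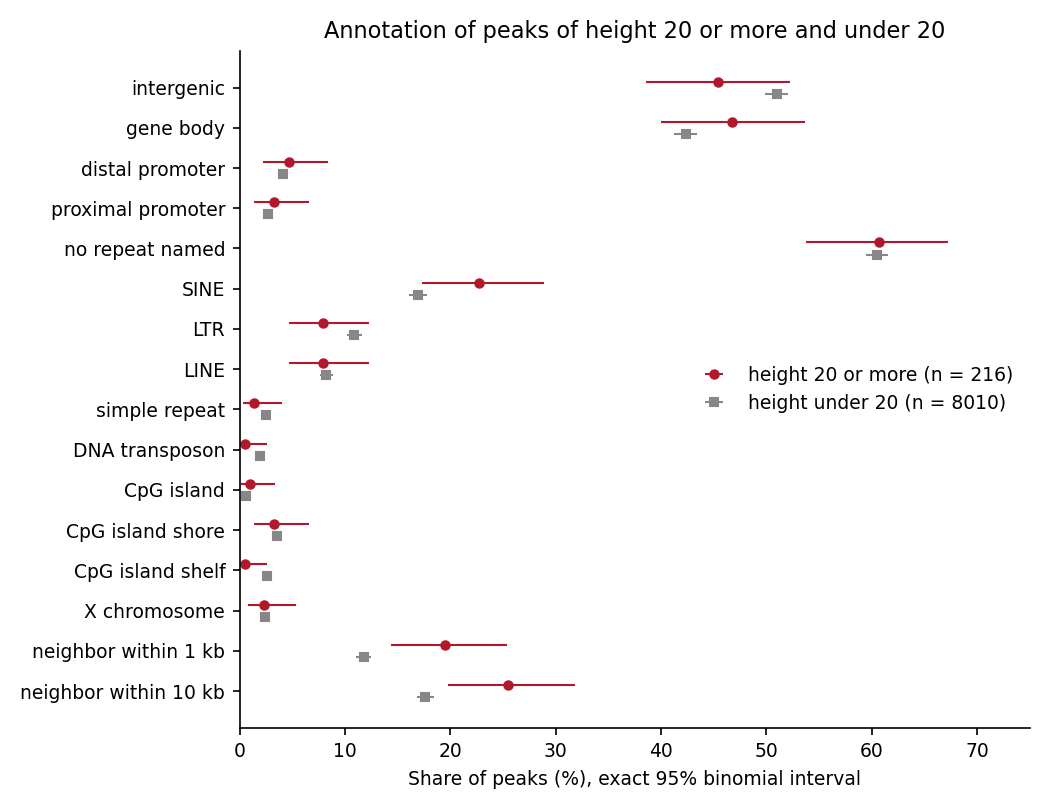
Share of peaks in each annotation class for the 216 peaks of height 20 or more (red circles) and the 8010 peaks under 20 (grey squares), with exact 95% binomial intervals. The intervals overlap in all classes except peaks with a neighbor within 1 kb or 10 kb. For SINEs the red interval begins at 17.3% and the grey one ends at 17.8%.

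The CpG island context in the file was rare in the set, with 10 of the 216 peaks (4.63%, 2.24 to 8.35) against 534 of the others (6.67%, 6.13 to 7.24). Islands held 2 peaks, at -336 kb from Tmpo, a nuclear lamina gene, with 25 against 5, and inside the kinase gene Nek5 with 21 against 1. Both lay in retroelement sequence. Shores held 7 peaks (3.24%) against 3.51%, and shelves held 1 peak, assigned to Lcn4, with 24 against 2. That is 0.463% against 2.61% in the others, an odds ratio of 0.17 (0.00435 to 0.989) whose interval contains 1 when widened for 21 comparisons and with 1 peak per 1 kb site.

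Distal promoter peaks reached heights of 20 to 24. Cmas, an enzyme gene of sialic acid activation, had 24 against 1 at -4.00 kb, and Glra3, a glycine receptor gene, had 22 against 1 in a LINE at -8.66 kb. Casr, the calcium-sensing receptor gene, had 20 against 1 in LTR sequence at -6.32 kb. Eif3d, a translation initiation factor gene, had 20 against 1 in a SINE at -4.14 kb. These 4 of the 10 were picked after their values were seen. A repeat was named at 7 of the 10. Over all peaks under 20, no repeat was named at 60.5%, and the share at their distal promoter peaks was not computed. The 7 of 10 is therefore not read as a feature of these peaks.

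On the X chromosome 5 of 197 peaks reached 20 (2.54%, 0.829 to 5.82), against 211 of 8028 on the autosomes (2.63%, 2.29 to 3.002). All 5 had a height of 21, the highest on this chromosome. Hdac6, a cytoplasmic deacetylase gene, had 21 against 1 in a SINE inside the gene. Sox3, a transcription factor gene of the early nervous system, had 21 against 1 at -282 kb. Ptchd1 and Gemin8 had 21 against 3 at -22.8 and -54.5 kb, and Xpnpep2, a peptidase gene, had 21 against 4 in its distal promoter. Among the autosomes the share ran from 0.940% on chromosome 17 (3 of 319) to 4.01% on chromosome 12 (14 of 349), and the interval of each of the 19 autosomes contained the autosomal share.

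**Figure D5:**
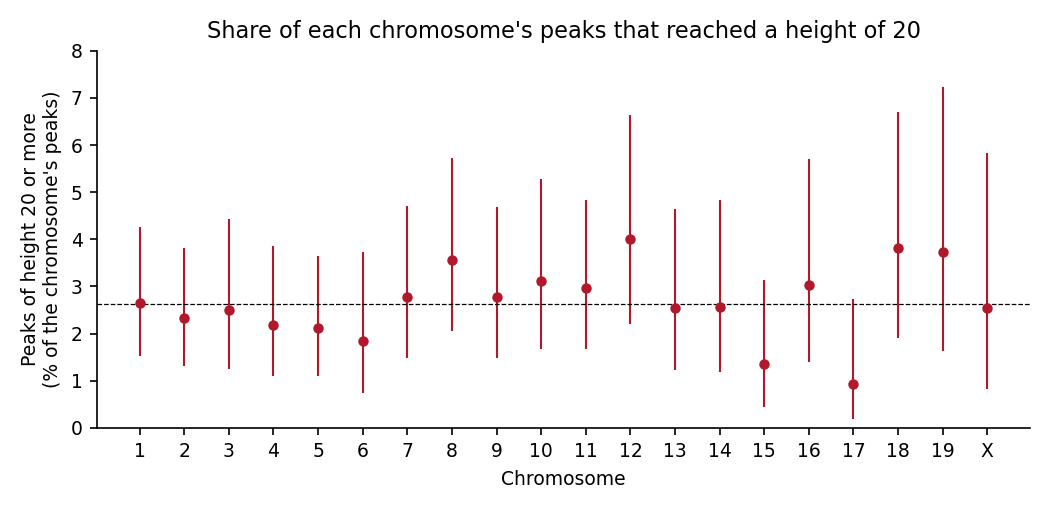
Share of each chromosome's deposited peaks that reached a Dnmt1-Dam height of 20, with exact 95% binomial intervals and a dashed line at the autosomal share of 2.63%. Every interval crosses the line, the X chromosome included.

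The 216 peaks were assigned to 204 genes, and 76 of these genes had no other deposited peak. The share of other genes with a single peak was not computed. The median number of deposited peaks was 2 for the 204 genes and 1 for the other genes with a peak. A gene with more deposited peaks has more chances to hold one of 20 or more. These medians therefore do not set the 204 genes apart. Only Marcks, a protein kinase C substrate gene, held 2 separate sites, with 23 against 3 at -61.7 kb and 21 against 1 at -743 kb. Sites of different genes lay within 200 kb of each other 4 times. The closest were a SINE peak at the Smarcc2 promoter and a peak in the neighboring ubiquitin ligase gene Rnf41, 22.5 kb apart on chromosome 10. The Rnf41 peak had 23 against 1 and was the second row of a close pair, whose first row had 18 against 7. A peak assigned to Abo, the blood group gene, with 35 against 2, lay 51.4 kb from the Lcn4 peak. Peaks assigned to Tnc and Pappa were 177 kb apart, and those in Pcnx2 and Kcnk1 190 kb apart. Only 122 of the 204 genes had such a peak inside the gene or within 10 kb of it, so for the others assignment means the gene the authors listed at a distance. The same share for genes of peaks under 20 was not computed.

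Very long genes held 12 of the 101 gene body peaks, counting genes over 500 kb and both rows of the pair at St6galnac3. The same share for gene body peaks under 20 was not computed, so this count is not read as a feature of the set. The highest was in Ptprd, a receptor phosphatase gene of 653 kb, with 26 against 1. Astn2, a gene of neuronal migration, and Unc5d, a netrin receptor gene, each had 24 against 1. Ryr2, the calcium release channel gene of heart muscle, had 22 against 3, and Epha6, an ephrin receptor gene, had 21 against 1. Camta1, a transcription activator gene, had 21 against 4, and Ctnna2, an alpha-catenin gene, had 20 against 5. These genes were named after their values were seen. Peaks in gene bodies lay in genes of a median 107 kb for the set and 110 kb for the others. The upper quartiles were 247 kb and 278 kb.

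By group of genes, the share of peaks that reached 20 was set beside the 2.63% of all peaks. The groups are fixed lists or sets of symbol prefixes, so each holds a part of the genes its name could cover, and a prefix can take in a few unrelated genes. The group for DNA methylation and silencing of retroelements had 16 peaks, of which 0 reached 20. The 29 peaks of imprinted genes, the 12 of 2-cell stage genes and the 8 of housekeeping genes also held none. A share of 2.63% gives less than 1 peak in each of these groups, so a count of 0 does not set them apart. The 40 peaks of olfactory and vomeronasal receptors, the 45 of ADAM and ADAMTS proteases and the 72 of receptors for glutamate (Gria, Grik, Grin and Grm), GABA (Gabr), acetylcholine, serotonin and dopamine held none either. For the last group the exact interval of the share runs to 4.99%, which contains 2.63%. That group leaves out other neurotransmitter receptor genes, of which the glycine receptor genes Glra1 and Glra3 and the GABA receptor gene Gabbr2 (24 against 1) do have peaks of 20 or more.

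Wnt pathway genes had 3 of 50 peaks at 20 or more (6.00%, 1.25 to 16.5). These were the pair at Wnt3 and a peak of 22 against 3 inside Lef1, a transcription factor gene that acts at Wnt targets, so they are 2 sites of 46. Zinc finger Zfp genes had 5 of 116 (4.31%, 1.41 to 9.77), at Zfp326, Zfp607a, Zfp516 (28 against 3 at 474 kb), Zfp217 (22 against 2 at 146 kb) and Zfp592 (20 against 2 inside the gene). Cadherins and protocadherins had 3 of 74 (4.05%, 0.844 to 11.4), all intergenic, at Cdh18 (31 against 5), Cdh20 (31 against 5) and Cdh2 (20 against 1). Each of these intervals contains 2.63%.

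The list of long adhesion and synapse genes of neurons had 5 of 197 peaks at 20 or more (2.54%, 0.829 to 5.82). They included Cdh18, Ptprd and Ctnna2, and Robo1, an axon guidance receptor gene, with 22 against 7 at 516 kb. Pluripotency and first lineage genes had 1 of 43 (2.33%), at Pdgfra, a receptor gene of primitive endoderm, with 21 against 1 at 136 kb. Genes of the germline and the piRNA pathway had 1 of 18, at Nobox, an oocyte transcription factor gene, with 26 against 2 at -34.6 kb. Sox, Fox, Pax, Tbx and Hox factors had 2 of 72, at Sox3 and at Sox6 (41 against 1 at 551 kb).

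Potassium, sodium and calcium channel genes whose symbols begin with Kcn, Scn or Cacn had 3 of 95 peaks at 20 or more (3.16%), at the potassium channel genes Kcnk1 (22 against 2) and Kcnk10 (20 against 1) and the sodium channel gene Scnn1g (20 against 1). Channel genes with other symbols, such as Ryr2 and Glra1, are not in that count. Solute carriers had 3 of 167 (1.80%), at Slc2a2, a glucose transporter gene (22 against 1), Slc26a9 (20 against 2) and Slc22a23 (20 against 1). Genes with Rpl or Rps symbols, kinase genes of the Rps6k family among them, had 1 of 36 at Rpl37, and receptor phosphatases had 1 of 46 at Ptprd. Across the 18 groups the exact interval of each share contained 2.63%.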

How the data were processed

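One deposited table, with a peak height per DamID library, was used. The authors deposited these signal heights as whole numbers, and the labels do not say whether they were scaled. CASAVA, BWA and the build mm9 were used, per the submitters' processing notes. The peak caller and its thresholds are not named in the labels. Libraries had 15 cycles of PCR, per the labels' protocols. In the deposited file every Dnmt1-Dam height is at least 6 above and at least 2 times the Dam-only height, and no Dam-only height is under 1.

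Gene symbols came from a RefSeq table of GRCm38.p6, which matched 215 of the 216 peaks. Peaks of height 20 or more were compared with the others by shares with exact Clopper-Pearson intervals and by exact conditional odds ratios, both at 95% (SciPy 1.17.1, pandas 2.3.3, Python 3.11.15). The 21 odds ratios formed 1 family, with intervals also at 99.8%. Intervals cover counting error over peaks only, since 1 library has no replicate. Reads were amplified by PCR, and whether duplicate copies enter the heights was not tested. No p-value was computed. The routines were tested on simulated data. A peak with several repeat classes entered each of them.

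The rule for named peaks took the 12 highest and those in proximal promoters, in CpG islands, on the X chromosome, in close pairs or in a gene group, and 1 of the peaks it took is not reported here. The members, gene groups and comparisons were chosen with earlier results of these data known. Alternatives were other thresholds, 1 peak per 1 kb site, a Dam-only height of 1, ranking by ratio with a pseudocount of 1, comparison with heights 9 to 19, the first repeat named and, for genes, peaks inside or within 10 kb. The fit without the highest peak and the checks of promoter CpG density and of close rows were chosen after seeing the data. No genome of the build mm9 was used, so no sequence was read at the peak positions.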

Additional observations from a re-analysis of the deposited data

How the results depend on the processing

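Of 156 recalculated odds ratios, 141 had an interval that contained or excluded 1 as in the main comparison. Only 4 of the 21 main intervals excluded 1, so this count mostly covers intervals that contained 1 both times. It does not follow direction. At height 25 or more, the odds ratio went from 0.80 to 1.55 for intergenic peaks and from 1.20 to 0.71 for gene body peaks. All of these intervals contained 1. SINEs, at 1.44 with all peaks, no longer excluded 1 with 1 peak per 1 kb site (1.41), at a Dam-only height of 1 (1.5), ranked by ratio (1.18), against heights 9 to 19 (1.37) or without the highest peak (1.41), and turned to 0.808 at height 25 or more. CpG island shelves no longer excluded 1 at height 15 or more (0.633), at 25 or more (0), with 1 peak per 1 kb site (0.183), at a Dam-only height of 1 (0) or ranked by ratio (0.351). The odds ratio of DNA transposons was 0 when ranked by ratio, with an interval of 0 to 0.878, against 0.24 by height. Against heights 9 to 19, neighbors no longer excluded 1 within 1 kb (1.44) or 10 kb (1.37), and with 1 peak per 1 kb site the odds ratio within 10 kb turned to 0.95. Within 1 kb that setting gives no value, by construction. The causes of the other shifts were not tested. The number of peaks was 712 at height 15 or more, 70 at 25 or more and 109 at a Dam-only height of 1, which includes second rows of close pairs. Genes with a peak inside or within 10 kb numbered 122, by the narrower rule. Of 36 recalculated gene group shares, 5 fell outside the main interval. By the narrower rule 0 peaks reached 20 in the pluripotency, germline, ribosomal, cadherin and Sox, Fox, Pax, Tbx and Hox groups. Those groups then held 5 to 27 peaks each, too few for a count of 0 to set them apart. The Wnt group held 1 of 24. No paired analysis was possible because each group is 1 library. The depth is unknown, and with 216 peaks classes under about 10 peaks have wide intervals.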

Other observations

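Among the 216 peaks were some of genes that belong to the same family or signal together, picked here after their values were seen and not tested. A ligand and its receptor were both present: Hgf, the hepatocyte growth factor gene, had 20 for Dnmt1-Dam against 1 for Dam-only at 321 kb, and Met, which encodes its receptor, had 22 against 5 inside the gene. The homeobox genes Meis1 and Meis2 had 22 against 2 and 23 against 2, each inside the gene, and Meis2 is named Mrg1 in the file. The ryanodine receptor gene Ryr3 had 24 against 1 inside the gene, beside the peak in Ryr2. The ephrin receptor gene Epha4 had 20 against 6 at 629 kb, beside the peak in Epha6. The ceramide synthase gene Cers4, named Lass4 in the file, had 22 against 1 inside the gene, beside the promoter peak of Cers1. Tdgf1, a Nodal coreceptor gene of the early embryo that is not in the list of pluripotency genes, had 22 against 2 at 29.7 kb.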
